A study of Homo sapiens with 4 samples.

Results

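The data describe ETS1 and 9 broadly expressed relatives of it in the ETS transcription factor family (ETS2, ELF1, ELF2, ELF4, ELK1, ELK3, ELK4, GABPA and ETV6), chosen by gene name. All 10 were found among the 55764 gene names of the expression table. TE5 is a human oesophageal squamous cell carcinoma line. Bulk RNA was sequenced as 4 libraries, 2 of cells that stably carried a lentiviral vector expressing human ETS1 from the CMV promoter and 2 of cells that carried the empty backbone, whose genotype the labels give as WT. Both groups were infected with virus packaged in HEK293T cells and then selected. Whether either group is 1 clone, and whether the numbers 1 and 2 mark separate infections or repeat cultures, is not given in the sources used here, so p-values measure the spread between these libraries, which may be technical.

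ETS factors share a DNA-binding domain, the ETS domain, that recognises a short GGA core, with the flanking bases differing between subfamilies. ETS1 and ETS2 are activators that the ERK kinases phosphorylate. ELF1, ELF2 and ELF4 form a subfamily of their own, and ELK1, ELK3 and ELK4 are the ternary complex factors, which bind DNA together with serum response factor (SRF). GABPA is the DNA-binding subunit of GABP and works with GABPB1 or GABPB2, and ETV6 is a repressor that polymerises and is known from leukaemia fusions. Because most tissues express several of these factors, which bind overlapping sites, an experiment that adds ETS1 adds it to a pool of relatives.

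The values are FPKM, which divides the fragments of a gene by its length and by the library's total, so that levels can be compared between genes. Reads recovered from them numbered 40356723 and 44119604 for control 1 and 2, against 57269984 and 56502875 with ETS1, counting the genes of the authors' comparison table. Between 14160 and 14326 genes per library reached 1 FPKM. Of 8 squamous markers, 7 were under 1 FPKM in every library, with KRT5, KRT14 and TP63 at 0 in both controls, so the squamous label was not borne out by these genes, while SOX2 rose from 2.72 and 3.13 to 3.52 and 3.82 FPKM (limma adjusted p 0.0301). PTPRC, which marks all leukocytes, was at most at 0.0117 FPKM. The summed level of 4 fibroblast markers was 2.22 and 2.08 FPKM in the controls and 2.85 and 2.94 FPKM in the ETS1 libraries, with DCN, COL1A2 and PDGFRB at or near 0. Nearly all of it was COL1A1, which rose from 2.17 and 2.06 to 2.81 and 2.88 FPKM (limma adjusted p 0.00599), and its part in the results was not tested. That of 5 simple epithelial markers was 16.1 and 16.3 against 16.8 and 16.9 FPKM, within which KRT8 rose from 3.90 and 3.87 to 6.48 and 6.59 FPKM (limma adjusted p 0.000591) and KRT18 fell from 10.2 and 10.5 to 8.35 and 8.29 FPKM (limma adjusted p 0.00223). That of 3 endothelial markers was at most 0.0585 FPKM. In bulk RNA, fewer cells of a type and less RNA per cell cannot be told apart.

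Before the comparison, the 10 genes spanned a wide range of levels. In the controls ELK1 was highest at 22.4 ± 0.417 FPKM (SD, n = 2), followed by ELF4 (10.6), ELF2 (9.07), GABPA (7.45), ETS2 (6.54), ELK4 (4.40), ELF1 (4.34), ELK3 (3.03), ETV6 (1.18) and, last, ETS1 at 0.500 ± 0.0129 FPKM (SD, n = 2). ELK4 and ELF1 could not be ordered, since they lay 0.0608 FPKM apart with SDs of 0.146 and 0.247 FPKM. GABPA and ETS2 differed by 0.910 FPKM, with an SD of 0.774 FPKM for GABPA. In the ETS1 libraries the order changed at 2 places. GABPA (11.8 FPKM) stood above ELF2 (9.63 FPKM) in both libraries, and ETS1 (1.85 FPKM) above ETV6 (1.33 FPKM). ETS2, ELK4 and ELF1 lay close together there, at 6.95, 6.56 and 6.12 FPKM. The place of ETS1 in the order rests on the gene length of 7168 bases that its FPKM uses.

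**Figure D1:**
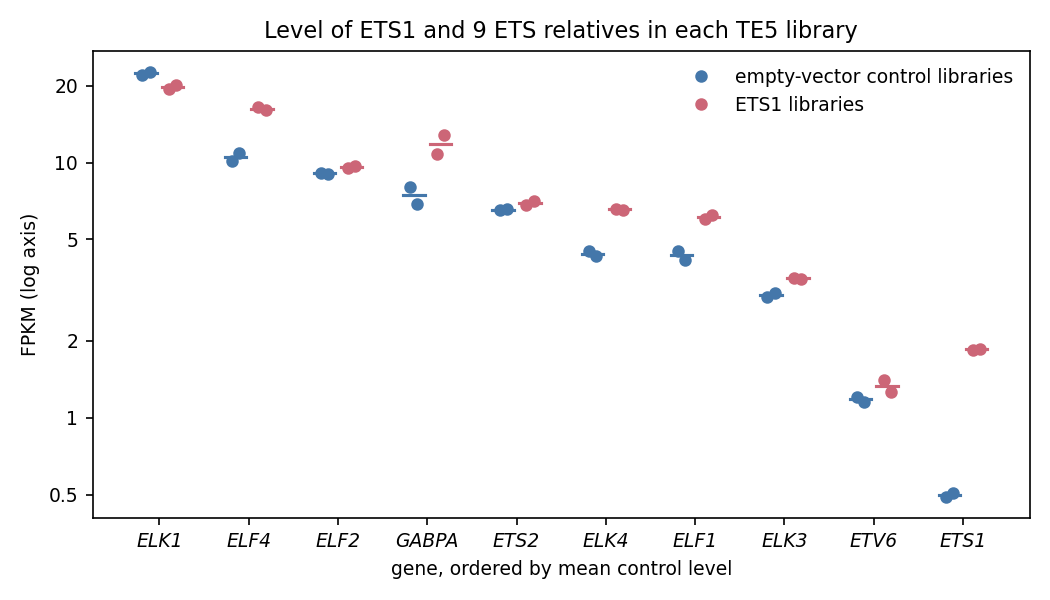
FPKM of the 10 ETS genes on a log axis, ordered by mean control level, with a point for each library (2 control, 2 ETS1) and a bar at the mean of each pair. ETS1 is the lowest of the 10 in the controls and passes ETV6 in the ETS1 libraries, and ELK1 is highest in both groups and the only gene whose ETS1 points lie below its control points. The ETS1 gene is placed at the gene length of 7168 bases that its FPKM uses.

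With ETS1 expressed from the vector, 6 of the 10 genes rose, ETS1 itself among them, ELK1 fell, and ETS2, ELF2 and ETV6 did not pass the test. The test was limma on log2(FPKM + 1) across the 14306 genes that averaged at least 1 FPKM, called at a Benjamini-Hochberg adjusted p under 0.05. Over all genes tested, 30.7% were called higher and 28.4% lower, 59.1% in all, so a call by itself is common in these libraries. All 10 passed the filter on low values, but ETS1 passed only through the ETS1 libraries. The values of all 10 did not overlap between the groups, which held for 82.0% of all tested genes. Both ETS1 values were above both control values in 9 of the 10 and below them in ELK1, against 43.1% and 38.9% of all tested genes. The median log2 change of the 10 was 0.29, against 0.016 over all tested genes, and their median absolute change was 0.29 against 0.20. Both medians of the 10 include ETS1, which the vector adds. Among the 9 relatives alone the median was that of ELK3, 0.165, by change and by absolute change. That is below the median absolute change of 0.20 over all tested genes. With 2 libraries against 2, the exact permutation test gave each of the 10 a two-sided p of 0.3333, the smallest it can give, so a call depends on the spread limma borrows from other genes. The authors' deposited table calls 5 of the 10 higher and 1 lower, where it calls 25.3% and 25.9% of its 15683 genes with an adjusted p, and the gene it leaves out is ELK3.

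ETS1 itself (ENSG00000134954, chromosome 11, 128458761 to 128587558, minus strand, positions from GENCODE 29, GRCh38) had 0.491 and 0.509 FPKM in the controls and 1.84 and 1.87 FPKM in the ETS1 libraries. The replicates of each group nearly coincide and the groups are far apart, a ratio of 3.71. These levels rest on 142 and 161 reads against 756 and 756 reads, and a control value of 0.491 FPKM has an exact 95% Poisson interval of 0.414 to 0.579 FPKM, which covers counting error only. The log2 change was 0.93 (limma adjusted p 0.000704), and 1.87 by limma's voom on recovered reads, which adds no 1 FPKM. Even so, ETS1 in the ETS1 libraries was below 8 of its 9 relatives per kilobase. The FPKM divides by a gene length of 7168 bases, while the longest annotated coding sequence has 1455 bases. RNA from the vector and from the cell's own gene was not separated. ETS1 made up 0.528% and 0.547% of the summed FPKM of the 28 human ETS genes in the controls, and 1.71% and 1.69% in the ETS1 libraries.

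ETS2, the closest relative of ETS1 and like it an ERK-regulated activator, did not pass. It had 6.52 and 6.55 FPKM in the controls and 6.83 and 7.07 FPKM in the ETS1 libraries, a small gap with no overlap. The log2 change was 0.076, with a 95% interval of -0.016 to 0.17 (limma adjusted p 0.125). The gene lies on chromosome 21 (38805307 to 38824955, plus strand), where the median log2 change of the tested genes nearest to it was 0.082. The level of ETS1 relative to ETS2 moved from 0.0765 ± 0.0017 to 0.267 ± 0.0038 (SD, n = 2 each). This ratio rests on the gene length of 7168 bases that the FPKM uses for ETS1, and would be larger if the vector's RNA were shorter.

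In the ELF subfamily, ELF4 and ELF1 rose and ELF2 did not pass. ELF4 (chromosome X, 130064874 to 130110716, minus strand), also called MEF and known for its roles in lymphocytes and in interferon responses, had 10.2 and 10.95 FPKM in the controls and 16.5 and 16.1 FPKM in the ETS1 libraries. Its ratio was 1.54 and its log2 change 0.58 ± 0.044 (standard error, limma adjusted p 0.000873). ELF1 (chromosome 13, 40932028 to 41061440, minus strand), a widely expressed activator, had 4.51 and 4.16 FPKM in the controls and 5.99 and 6.25 FPKM in the ETS1 libraries. The groups were apart by more than the spread within either, at a log2 change of 0.42 (limma adjusted p 0.00247). ELF2 (chromosome 4, 139028112 to 139177218, minus strand), also known as NERF, had 9.11 and 9.02 FPKM in the controls against 9.56 and 9.70 FPKM. Its log2 change of 0.079 had a limma adjusted p of 0.0857 and turned to -0.074 with the local chromosomal median removed (0.124). With the length and GC trend removed it was -0.098 and was called lower (limma adjusted p 0.0344), the one call of that direction among the 10 under that setting. The ratio of ELF4 to ELF2 within a library went from 1.12 and 1.21 in the controls to 1.72 and 1.66 in the ETS1 libraries.

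The 3 ternary complex factors went in different directions. ELK4, or SAP-1 (chromosome 1, 205597556 to 205631962, minus strand), had 4.50 and 4.29 FPKM in the controls and 6.59 and 6.53 FPKM in the ETS1 libraries, a ratio of 1.49. Its log2 change was 0.49 ± 0.039 (standard error, limma adjusted p 0.001001). The change was 0.25 when a trend with gene length and GC content was removed, and still passed (limma adjusted p of 0.00262). ELK1 (chromosome X, 47635521 to 47650604, minus strand), the best known target of ERK among the 3, had 22.1 and 22.7 FPKM in the controls and 19.5 and 20.2 FPKM in the ETS1 libraries. Both ETS1 values lay below both control values, and the log2 change was -0.16 with a limma adjusted p of 0.0118. That call was lost under quantile normalization (limma adjusted p of 0.0504), without the first ETS1 library (0.0762) and with the length and GC trend removed (0.0531), which left a change of -0.093.

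ELK3, or Net (chromosome 12, 96194382 to 96269835, plus strand), which represses until Ras signalling switches it, had 2.98 and 3.08 FPKM in the controls and 3.55 and 3.49 FPKM in the ETS1 libraries. Its log2 change was 0.16 with a limma adjusted p of 0.0253. It is the least firm of the 6 rises, since the call held under 5 of 14 alternatives, the adjusted p ran from 0.0180 to 0.269 over them, and the authors' deposited table gives 0.119. The log2 change of ELK3 was 0.070 with the local chromosomal median removed and 0.11 with the length and GC trend removed. Their shared partner SRF, singled out after its values were seen, fell from 25.1 and 25.3 to 20.6 and 20.3 FPKM (log2 change -0.29, limma adjusted p 0.00141). ELK4 relative to SRF went from 0.179 and 0.169 to 0.320 and 0.321, while ELK1 relative to SRF was 0.878 and 0.894 in the controls and 0.946 and 0.993 in the ETS1 libraries. ELK1 remained the most abundant of the 3 in every library.

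GABPA (chromosome 21, 25734570 to 25772460, plus strand) rose by about as much as ELF4 and had the largest spread of the 10. It had 7.997 and 6.90 FPKM in the controls and 10.8 and 12.9 FPKM in the ETS1 libraries, a ratio of 1.59. The groups do not overlap, but within each group the exact 95% Poisson intervals of the replicates do not meet either, at 7.63 to 8.38 and 6.57 to 7.24 FPKM in the controls and 10.4 to 11.2 and 12.5 to 13.3 FPKM in the ETS1 libraries. The log2 change was 0.60 ± 0.10 (standard error, limma adjusted p 0.00671). Neither of its partners, singled out after their values were seen, passed the test. GABPB1 had 7.55 and 7.08 FPKM in the controls and 7.06 and 7.01 FPKM in the ETS1 libraries (limma adjusted p 0.359), and GABPB2 5.51 and 5.30 against 5.90 and 5.90 FPKM (0.0606). Relative to GABPB1, GABPA went from 1.06 and 0.975 to 1.53 and 1.84.

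ETV6 (chromosome 12, 11649854 to 11895402, plus strand), the repressor, was low and did not pass. It had 1.21 and 1.15 FPKM in the controls and 1.41 and 1.26 FPKM in the ETS1 libraries. The log2 change was 0.099 with a 95% interval of -0.074 to 0.27 (limma adjusted p 0.253), and 0.052 without the first ETS1 library. The tested genes nearest to it on the chromosome had a median log2 change of 0.22, and with that removed ETV6 stood at -0.12 (limma adjusted p 0.146).

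**Figure D2:**
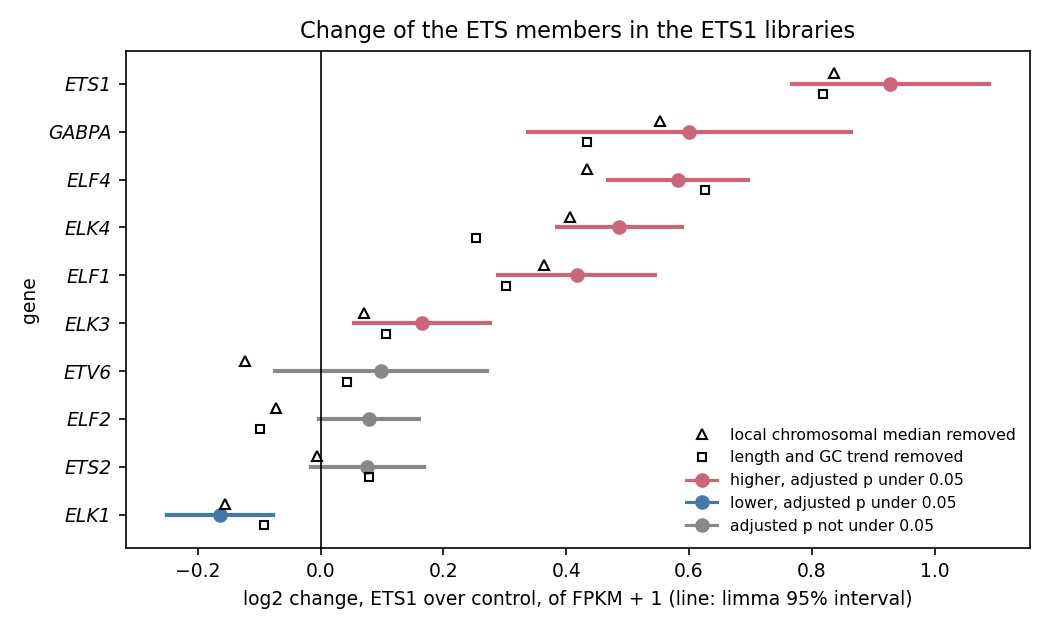
Log2 change of FPKM + 1 between ETS1 and control libraries for the 10 ETS genes, as circles with limma's 95% intervals, coloured by call, with open triangles for the change after removal of the local chromosomal median and open squares after removal of a length and GC trend. ETS1, GABPA, ELF4, ELK4 and ELF1 stay to the right of 0 on all 3 measures, ELK1 stays to the left, and ETV6, ELF2 and ETS2 have triangles left of 0.

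RefSeq promoter windows (250 bases before to 50 after an annotated start, GRCh38.p14) were searched for 9 of the 10 genes, and that of ETS1 was not analysed here. The windows were searched on both strands for CCGGAAGT, the consensus of the ETS1, ELK and GABP subfamilies, and for its GGAA core, which every CCGGAAGT contains. At the annotated start nearest to the GENCODE gene start, CCGGAAGT was found in 2 genes, ELK4 and GABPA, and it is found in 4.14% of 35116 windows over all genes. GGAA was found in 8 of the 9 and in 95.5% of all windows. The sequences of both genes with the full site are shown with those of ELF4, which rose without it in this window, and ELK1, which fell. Capitals mark CCGGAAGT or its reverse complement and each GGAA or TTCC, and each sequence runs 5′ to 3′ on the gene's strand. Each is the stretch just before the RefSeq start except for GABPA, for which 30 bases around the site are given. The ELF4 stretch and most of the ELF4 window lie within the GENCODE gene. Little sequence before the GENCODE start of ELF4 was therefore searched in that window.
ELK4, chr1:205632012-205632131, minus strand: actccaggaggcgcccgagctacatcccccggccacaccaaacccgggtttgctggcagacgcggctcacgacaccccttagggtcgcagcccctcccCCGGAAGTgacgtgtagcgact
GABPA, chr21:25734894-25734923, plus strand: acctccgctctACTTCCGGccctggctccg
ELF4, chrX:130110498-130110617, minus strand: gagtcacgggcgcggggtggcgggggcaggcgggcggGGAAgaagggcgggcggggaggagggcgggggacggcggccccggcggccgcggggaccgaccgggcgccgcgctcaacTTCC
ELK1, chrX:47650605-47650724, minus strand: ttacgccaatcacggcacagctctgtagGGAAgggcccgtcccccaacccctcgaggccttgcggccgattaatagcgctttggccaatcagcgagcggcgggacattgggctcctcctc
The ELK4 site lies 22 to 15 bases before the RefSeq start on the gene's strand. The GABPA site lies 67 to 60 bases before its RefSeq start on the opposite strand, within the GENCODE gene. These are matches of letters, and no binding was measured. ATP5PF, listed under its older symbol ATP5J, encodes a subunit of the ATP synthase and overlaps GABPA on the opposite strand. Its 97.8 and 89.4 FPKM in the controls and 69.8 and 66.3 FPKM in the ETS1 libraries (log2 change -0.45, limma adjusted p 0.00241) moved the other way from GABPA. This neighbour was singled out after its values were seen.

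The other 18 human ETS genes were mostly not expressed, as 16 of them were under 1 FPKM in every library. Of the remaining 2, ETV3, a repressor, rose from 4.59 and 5.00 to 6.91 and 6.95 FPKM (log2 change 0.45, limma adjusted p 0.00179). ERF, also a repressor and the second most abundant ETS gene in the controls, had 16.8 and 16.9 FPKM in the controls and 16.0 and 16.4 FPKM in the ETS1 libraries and did not pass (limma adjusted p 0.214). The 10 ETS genes described here made up 74.8% and 74.4% of the family's summed FPKM in the controls and 76.7% and 77.1% in the ETS1 libraries. That sum went from 93.0 and 93.1 to 107.6 and 110.6 FPKM. The part of ETS1 in that sum rests on the gene length of 7168 bases, and it would be larger if the vector's RNA were as short as the coding sequence. The share of ELK1 went from 23.7% and 24.4% to 18.1% and 18.3%, and that of ELF4 from 10.9% and 11.8% to 15.3% and 14.5%.

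**Figure D3:**
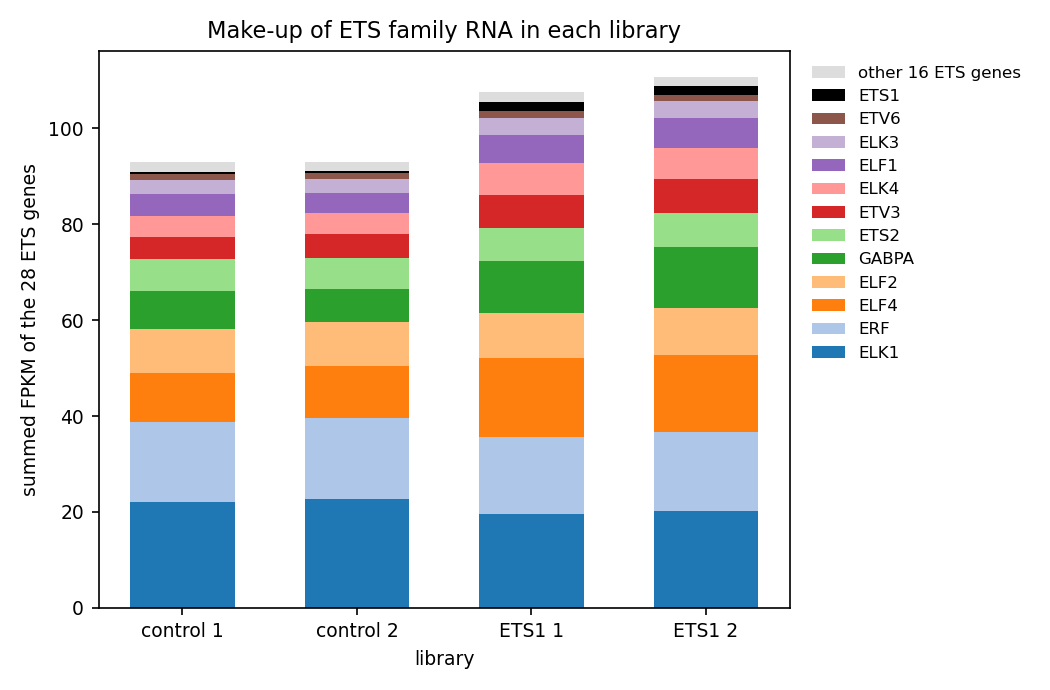
Summed FPKM of the 28 human ETS genes in each of the 4 libraries, stacked by gene, with 12 genes coloured and the other 16 in grey. The stack is taller in both ETS1 libraries (107.6 and 110.6 FPKM) than in both controls (93.0 and 93.1 FPKM), and the black ETS1 segment is a thin part of it in every library at the gene length of 7168 bases that the FPKM uses.

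Of 18 listed cofactors, kinases and modifiers of ETS proteins, 16 were tested. Of these, 5 were called higher and 4 lower, against 30.7% and 28.4% of all tested genes, and their median log2 change was 0.068. NCOR1, a corepressor used by ETV6, rose from 6.14 and 5.91 to 9.29 and 9.57 FPKM (log2 change 0.57, limma adjusted p 0.000685). CBFB, the partner of RUNX1, with which ETS1 binds DNA cooperatively, rose from 16.2 and 13.6 to 19.7 and 21.2 FPKM (0.44, limma adjusted p 0.0106), a call that was lost with no filter (0.0645). RUNX1 itself was low, at 0.505 and 0.459 FPKM in the controls and 0.672 and 0.636 FPKM in the ETS1 libraries, and was not tested. EP300, an acetyltransferase that ETS1 recruits, rose from 8.60 and 8.39 to 11.1 and 11.4 FPKM (0.37, limma adjusted p 0.00141). With the local chromosomal median removed the change of NCOR1 was 0.37.

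Textbook target genes of ETS1 were often under 1 FPKM in these cells, and those that were expressed went both ways. Of 23 listed, 10 were tested, 4 were called higher and 3 lower, near the 30.7% and 28.4% over all tested genes, with a median log2 change of 0.069, and 12 were under 1 FPKM in every library. Tenascin C (TNC), a matrix glycoprotein, rose from 0.830 and 0.903 to 5.05 and 5.07 FPKM (log2 change 1.70, limma adjusted p 0.000369). Its control values were under 1 FPKM, so like ETS1 it was tested only through the ETS1 libraries and had to differ. ITGAV, the integrin αV chain, rose from 4.204 and 3.91 to 6.29 and 6.92 FPKM, and CDKN1A, the cyclin-dependent kinase inhibitor p21, from 38.4 and 36.5 to 51.4 and 49.6 FPKM. Their log2 changes were 0.59 and 0.42.

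Immediate early genes that the ternary complex factors drive with SRF were tested in 8 of 11 cases, with 4 called higher and 1, SRF itself, lower, against 30.7% and 28.4% of all tested genes. Their median log2 change was 0.18. SRF is also among the cofactors above, and MCL1, called higher, is also among the ETS1 targets. Their calls are therefore not separate between the lists. EGR1, a zinc-finger factor, rose from 2.28 and 2.23 to 6.02 and 6.05 FPKM (log2 change 1.11, limma adjusted p 0.000435). ZFP36, an mRNA decay factor, went up by 0.47 and JUNB, an AP-1 subunit, by 0.39 on the log2 scale, with no overlap between groups for either. Targets of GABP were all tested, and of 9 there were 3 called higher and 4 lower, with the same 30.7% and 28.4% over all tested genes, and a median of 0.11. Utrophin (UTRN) rose from 2.80 and 2.83 to 4.36 and 4.68 FPKM and TFB1M, a mitochondrial rRNA methyltransferase, from 7.41 and 8.01 to 9.44 and 9.17 FPKM, while COX5B, a subunit of cytochrome c oxidase, fell from 177.7 and 175.6 to 146.3 and 144.5 FPKM. Without the first ETS1 library TFB1M lost its call (limma adjusted p 0.0525). The log2 change of COX5B was -0.28, and it was -0.072 under quantile normalization and -0.17 with the length and GC trend removed. That of UTRN was 0.53, and 0.33 with that trend removed.

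**Figure D4:**
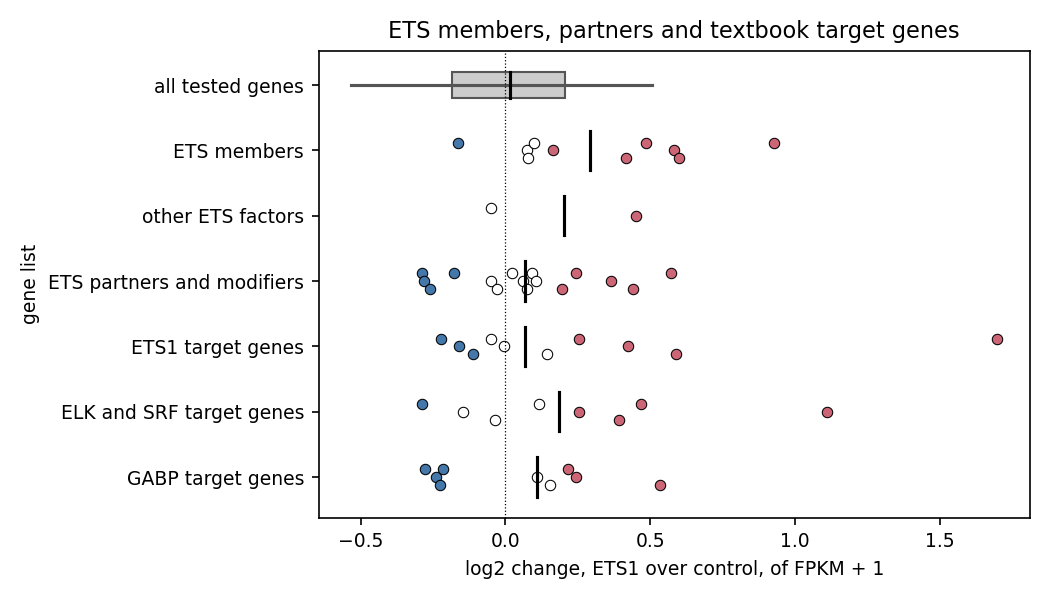
Log2 change of FPKM + 1 for each tested gene of 6 lists, red for called higher, blue for called lower and white for neither, with a black bar at each list's median. The grey box and line above them give the quartiles and the 5th and 95th percentile of all 14306 tested genes, and the list medians run from 0.068 to 0.29. The highest median is that of the 10 ETS members, with ETS1 included.

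The 5 tested genes whose profile over the 4 libraries was nearest to that of ETS1 were FBXO25, DCHS1, MT-CO3, MT-ND4 and TRIM5. The measure was the root mean square difference of log2(FPKM + 1), each gene taken relative to its own control mean, and it ran from 0.020 for FBXO25 to 0.034 for TRIM5. With 4 libraries in 2 groups it picks genes with an equal step between groups. The mitochondrially encoded MT-CO3 went from 3928 and 3982 to 7425 and 7800 FPKM and MT-ND4 from 2718 and 2762 to 5207 and 5426 FPKM, so these abundant transcripts moved with the groups, and their part in the other results was not tested. FBXO25 had 1.45 and 1.39 FPKM in the controls and 3.59 and 3.65 FPKM in the ETS1 libraries. By size of rise on the log2(FPKM + 1) scale, which understates low genes, ETS1 ranked 100 among the 14306 tested genes.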

How the data were processed

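Bulk RNA was measured in 4 TE5 libraries. The deposited FPKM values were computed by the authors. The authors used HISAT2, HTSeq and DESeq2 with the builds hg38 and GRCh38, per the submitters' processing notes, which give no roles or versions. Neither the gene annotation nor the strand setting is given in the sources used here, so antisense reads cannot be told apart. The authors' deposited table gives, per the file headers, a mean normalized count (a signal averaged over the libraries), log2 fold changes with standard errors, p-values and adjusted p-values.

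FPKM was tested as log2(FPKM + 1) with limma 3.58.1 in R 4.3.3, keeping genes that averaged at least 1 FPKM, with a group term, an intensity trend, two-sided tests and Benjamini-Hochberg adjustment over 14306 genes at 0.05. Fold changes on this scale understate the change of low genes. Whole reads were recovered from the exact steps of FPKM and the mean normalized counts. For 99.6% of 16652 genes all values fell within 0.01 of a whole number. Gene positions and GC content come from GENCODE 29, matched by name for 84.0% of tested genes. The fit was checked on simulated data. Alternatives are in the closing section.

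The 10 genes, the gene lists and the tests were chosen with earlier results of these data known. The text names the 10 genes, at most 3 genes per list with the largest absolute change, expressed ETS genes and the 5 profiles nearest to ETS1. Cell type markers, ETS genes below the filter, RUNX1, MCL1 and the genes said to be singled out were named outside this rule, after their values were seen. PECAM1, in the endothelial marker list, was not matched, and the other 3 markers of that list were under 1 FPKM in every library. Of 5 simple epithelial markers 3 were tested, and of 4 fibroblast markers 1. One marker gene and the summed level of its list are not reported here.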

Additional observations from a re-analysis of the deposited data

How the results depend on the processing

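Of the 15 alternatives, 14 were planned and the removal of a length and GC trend was chosen after seeing the data. ETS1 was called higher under all 14 that could test it, with a log2 change from 0.82 to 1.87, and ELF1, ELF4, ELK4 and GABPA under all 15. At a mean FPKM of at least 5, ETS1, ELK3 and ETV6 were not tested. The number of the 10 genes called higher was 5 or 6 under the settings that tested all 10. The number called lower was 0 under quantile normalization with limma, where 1 had an unadjusted p under 0.05, and ran from 0 to 1 in limma fits that each left out 1 library, with 0 without the first ETS1 library and again 1 at an unadjusted p under 0.05. The local chromosomal median removed turned ETS2 to -0.0055, ELF2 to -0.074 and ETV6 to -0.12 on the log2 scale. The length and GC trend removed turned ELF2 to -0.098 (limma adjusted p 0.0344, over all alternatives 0.0344 to 0.336) and ERF to 0.029. The cause of these turns was not tested beyond the settings themselves. Counts of calls in the other lists stayed within 1.5 times. Same-numbered libraries did not deviate together (correlation -0.046 over 14306 genes). With the replicate block 5 of the 10 genes were called higher and 1 lower, ELK3 losing its call (limma adjusted p 0.0638). Genes with few reads, such as ETS1 in the controls, are limited by depth.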

Other observations

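Several of the 10 ETS genes share their position with other annotated genes, chosen here after their values were seen. The processed pseudogene PPP1R14BP3 lies within ELF2 on the same strand and went from 110.0 and 119.3 FPKM to 77.0 and 75.2 FPKM (log2 change -0.58, limma adjusted p 0.000950), while ELF2 did not pass. Reads of such a pseudogene can be shared with its parent gene, so its value is uncertain. WBP4, a splicing factor gene that overlaps ELF1 on the opposite strand, had 12.96 and 13.1 FPKM against 11.9 and 12.3 FPKM (limma adjusted p 0.0532). NOCT, listed under its older symbol CCRN4L, overlaps ELF2 on the opposite strand and had 3.66 and 3.25 FPKM against 4.12 and 4.06 FPKM (log2 change 0.19, limma adjusted p 0.0394).

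Among ETS genes below the filter, FLI1, a factor of blood and endothelial cells, had 0.158 and 0.179 FPKM without the ETS1 vector and 0.290 and 0.312 FPKM with it. ETV2 had 0.759 and 0.662 FPKM without it and 0.591 and 0.509 FPKM with it. ELF5 was listed at 0 in every library, and EHF and ELF3, epithelial ETS factors, stayed under 1 FPKM. None of these was tested.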
